A study of Mus musculus with 12 samples.

Results

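The superoxide dismutases, catalase and the peroxiredoxins are the enzymes that convert superoxide to hydrogen peroxide and hydrogen peroxide to water. Their mRNA was examined here in heart and skeletal muscle of mice fed a high-iron or a control diet. The genes were taken by symbol from the annotation of the array: Sod1, Sod2, Sod3, Cat and Prdx1 to Prdx6, 10 genes in all, and every probe carrying such a symbol was used. Of these, 8 genes were found, on 13 of the 46133 probes; Sod1 and Prdx2 had 3 probes each, Prdx4 had 2, and the other 5 genes had 1 each. Prdx5 and Prdx6 had no probe under their symbol or gene identifier in the annotation used and were not analysed here.

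All mice were male C57BL/6, 18 weeks old at sampling according to the labels. Of the 6 mice, 3 received a diet with 2% carbonyl iron for 6 weeks and 3 received the control diet with 0.02% iron. Total RNA of the heart and of the extensor digitorum longus (EDL), a hind limb muscle of mainly fast fibres, was hybridized from each mouse to its own Illumina Sentrix Mouse-6 array, which gave 12 arrays in 4 groups of 3 (heart or skeletal muscle, control or high-iron diet). The labels name no transgene or deletion and do not say which chambers of the heart were taken. The values given are probe signals in arbitrary units after quantile normalization over the 12 arrays, and differences are on the log2 scale.

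Superoxide arises mainly as a by-product of respiration and from NADPH oxidases. Superoxide dismutases turn it into hydrogen peroxide in separate compartments: SOD1, a copper and zinc enzyme, in the cytosol and the space between the mitochondrial membranes, SOD2, a manganese enzyme, in the mitochondrial matrix, and SOD3 outside the cell. Hydrogen peroxide is then removed by catalase, a heme enzyme of peroxisomes, by glutathione peroxidases and by the peroxiredoxins, whose reactive cysteine is oxidized by the peroxide and reduced again by thioredoxin. Free ferrous iron can convert hydrogen peroxide to the hydroxyl radical, which is why these enzymes are of interest in iron loading. Heart relies on mitochondrial respiration, whereas fast limb muscle fibres rely more on glycolysis.

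Promoter sequences of 8 of the 10 genes were given by RefSeq (GRCm38.p6), each as 250 bases before and 50 bases after the start of transcription; Sod3 and Prdx6 were not in that table. The 150 bases directly before the start are shown for the 4 genes with the largest difference between the tissues and for Prdx1, which shares a motif with Sod1. Capitals mark every match, on either strand, to 6 short motifs: the GC box GGGCGG, the CCAAT box CCAAT, the TATA box TATAAA, the AP-1 site TGANTCA, the core of the antioxidant response element TGACNNNGC, which is bound by NRF2, and the element of estrogen-related receptors TNAAGGTCA.
Prdx2, chr8:84969472-84969621, plus strand: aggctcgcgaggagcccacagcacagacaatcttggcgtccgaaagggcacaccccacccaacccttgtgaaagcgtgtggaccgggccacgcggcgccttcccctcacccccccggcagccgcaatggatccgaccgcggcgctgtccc
Prdx4, chrX:155338461-155338610, minus strand: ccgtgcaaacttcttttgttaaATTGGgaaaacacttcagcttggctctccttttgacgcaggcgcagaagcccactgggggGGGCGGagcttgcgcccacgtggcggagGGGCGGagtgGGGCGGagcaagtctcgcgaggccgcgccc
Sod2, chr17:13007689-13007838, plus strand: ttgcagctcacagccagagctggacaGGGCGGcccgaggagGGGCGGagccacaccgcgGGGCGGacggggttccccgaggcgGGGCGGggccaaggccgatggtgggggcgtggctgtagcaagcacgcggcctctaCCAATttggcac
Sod1, chr16:90220612-90220761, plus strand: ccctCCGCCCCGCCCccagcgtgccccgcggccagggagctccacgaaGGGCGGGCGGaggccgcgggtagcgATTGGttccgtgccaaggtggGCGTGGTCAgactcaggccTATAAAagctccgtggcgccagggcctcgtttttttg
Prdx1, chr4:116685449-116685598, plus strand: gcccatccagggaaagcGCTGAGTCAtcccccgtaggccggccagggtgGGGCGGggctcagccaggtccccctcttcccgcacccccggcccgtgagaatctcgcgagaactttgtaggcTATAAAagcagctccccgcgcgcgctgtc

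The core of the antioxidant response element was found in the promoters of Sod1 and Prdx1, on the minus strand in both, as GCGTGGTCA beginning 56 bases before the start of Sod1 and GCTGAGTCA beginning 133 bases before that of Prdx1. In Prdx1 this match overlaps an AP-1 site, TGAGTCA, and a further AP-1 site, TGACTCA, begins 237 bases before the start, outside the stretch shown. Among all 32851 promoters of the table, 12.4% hold the element core and 7.81% an AP-1 site. A GC box was found in all 8 promoters, 4 in Sod1, 4 in Sod2, 3 in Prdx4 and 1 in each of Cat, Prdx1, Prdx2, Prdx3 and Prdx5, against 35.7% of all promoters with at least 1. The bases G and C make up 57% to 68.7% of these 8 promoters, and the share among promoters of like composition was not computed. In Sod1 the GC boxes form 2 overlapping pairs, and the GC box of Prdx2 spans the start and so lies partly beyond the stretch shown. TATA boxes were found 37 bases before the start of Sod1 and 29 bases before that of Prdx1, and in Prdx3 on the minus strand 239 bases before the start (13.6% of all promoters hold 1). The CCAAT box was found 4 times in Cat and once each in Sod1, Sod2 and Prdx4 (37.4% of all promoters), and the element of estrogen-related receptors in none of the 8 (1.28% of all promoters). These matches describe the letters only, and no binding was measured.

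The labelled tissues were checked against their markers. All 7 general and ventricular cardiomyocyte markers were higher in heart and all 10 fast skeletal muscle fibre markers were higher in skeletal muscle, with median log2 differences of 3.87 and -7.40. Among the heart arrays, control replicate 2 and high-iron replicate 1 stood apart. They were picked, 1 from each diet, for their low correlation with the remaining hearts, a choice known from earlier work on these data. Their median correlations with other hearts were 0.936 and 0.930, while the other 4 arrays had 0.985 to 0.986. The methods mention failed hybridization controls on a heart array of each diet, and the labels do not say which arrays these were. The authors left out the probes that failed on those arrays, whereas here all 46133 probes were kept on every array. For 6 of the 8 genes the brightest probe read higher on both arrays that stood apart than on each of the other 4 heart arrays. This held for 75% of the brightest member probes, 53.8% of all 13 member probes, 16.5% of all probes on the array and 55.6% of the tenth of probes with the highest signal. The mean of both arrays over the mean of the other 4 was 1.28 for Sod1, 1.28 for Prdx1, 1.24 for Prdx4, 1.23 for Prdx2, 1.20 for Sod2 and 1.13 for Prdx3, against 0.982 for Sod3 and 0.905 for Cat. Marker genes stood apart on them too. The summed signal of the atrial markers was 57413 on high-iron replicate 1 and 1607 to 5060 on the other hearts. Myl4 (32988), Myl7 (20034) and Mybphl (3862) made up most of it, while Nppa (271) and Sln (258) lay within the range of the other hearts. The sum of the adipocyte markers was 5673 on control replicate 2 and 2320 to 2739 on the other hearts. Ucp1 (2682), Cidea (1257), Adipoq (735) and, by little, Fabp4 (338) were highest there, but Plin1 (232), Lep (179) and Retn (251) were not. The part of atrial or fat tissue in the values of the 8 genes was not tested. Each diet holds 1 of these arrays, and for the 8 genes results in heart are also given without them where that changes a call.

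Most of these genes were higher in heart than in EDL. At an adjusted p under 0.05 (limma, Benjamini-Hochberg over all probes, both diets averaged, 6 arrays per tissue), 7 of the 8 genes were higher in heart and none was lower, with Prdx2 at 2.50-fold, Prdx4 at 2.00-fold, Sod2 at 1.86-fold and Sod1 at 1.58-fold. Cat did not pass it. Each gene stands here for its brightest probe, and no dimmer probe of Prdx2, Prdx4 or Sod1 passed the test. Counted by probes, 7 of 13 were higher in heart, against 7.3% of all probes higher and 5.5% lower in heart. All probes include many dim ones, whereas the brightest probes of Sod1, Sod2 and Prdx1 to Prdx4 read above 95.5% to 99.6% of them. When only the brighter probes were fitted, 6012 of 23066 were called in either direction, with 7 member probes called. A share among probes of like brightness was not computed. For 5 genes, Sod1, Sod2, Prdx2, Prdx3 and Prdx4, each of the 6 heart arrays read above each of the 6 skeletal muscle arrays, which was the case for 5.38% of all probes. The median log2 difference of the 8 genes was 0.50, and that of all probes was -0.00035. In whole tissue, more cells of a type that expresses a gene and more RNA of it per cell cannot be told apart.

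**Figure D1:**
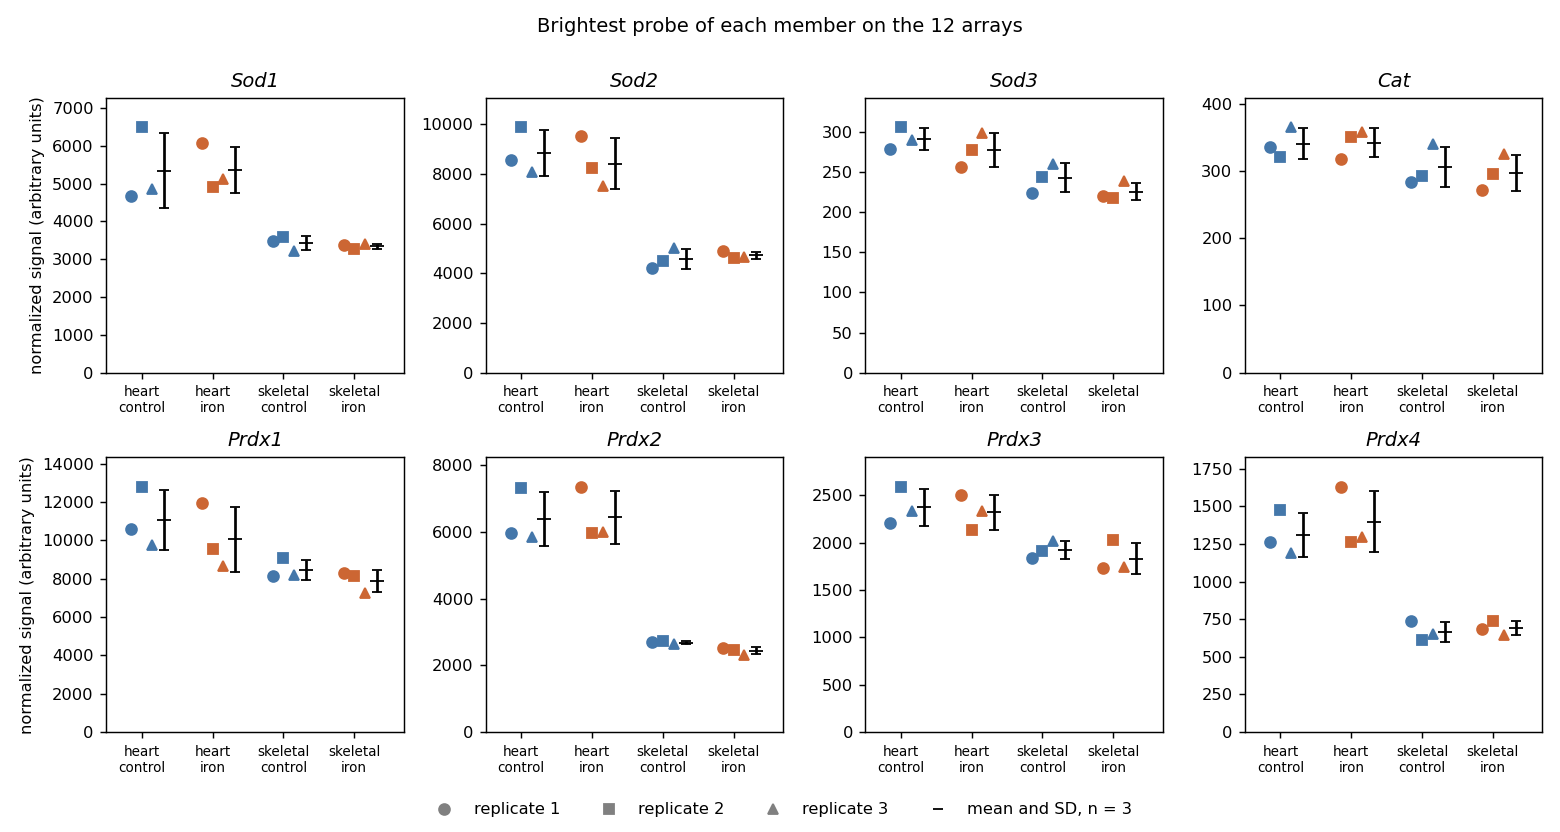
Normalized signal (arbitrary units, vertical axis from 0) of the brightest probe of each of the 8 genes on the 12 arrays. Circles, squares and triangles are replicates 1, 2 and 3 of a group, blue for the control and orange for the high-iron diet, and the black bars give the mean and SD of 3 arrays. The heart points lie above the skeletal muscle points without overlap for Sod1, Sod2, Prdx2, Prdx3 and Prdx4, and heart control replicate 2 and heart iron replicate 1 lie above the other heart arrays in 6 panels.

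Sod1, the cytosolic enzyme, read 4673, 6495 and 4869.9 in heart on the control diet and 6064, 4906 and 5114 on the high-iron diet. In EDL its signals were 3477, 3594 and 3229 on the control diet and 3380.3, 3268 and 3391 on the high-iron diet. The lowest heart array was above the highest EDL array, and the highest heart values were those of the pair of arrays described above. The mean was 5354 ± 743 in heart and 3390.0 ± 134 in EDL (SD, n = 6 arrays each), a log2 difference of 0.65 (standard error 0.0765, adjusted p = 6.53e-06, limma). Of the other Sod1 probes, 103800706 read 231 to 313 and 107100176 read 247 to 315 over the 12 arrays, and neither passed the test, with log2 differences of -0.081 and -0.087. The annotation assigns both to cDNA clone records and not to the RefSeq transcript, and both lay near the median signal of all probes, 257.

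Sod2, the mitochondrial enzyme, showed the largest difference among the dismutases. Its heart signals were 8557, 9892 and 8097 on the control diet and 9518, 8237 and 7513 on the high-iron diet. In EDL it read 4218, 4494 and 5012 on the control diet and 4886, 4614 and 4673 on the high-iron diet, so that the groups of the tissues were far apart and those of the diets overlapped. The tissue means were 8636 ± 903 and 4649 ± 283 (SD, n = 6), a log2 difference of 0.89 (standard error 0.0676, adjusted p = 2.9e-08, limma).

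Sod3, the extracellular enzyme, gave signals close to the median of all probes. They were 279, 306 and 290.4 in heart on the control diet and 257, 278 and 299.5 on the high-iron diet. In EDL they were 225, 244 and 261 on the control diet and 221, 218 and 239 on the high-iron diet, and the highest EDL array lay within the heart range. With 285 ± 17.8 in heart and 235 ± 16.4 in EDL (SD, n = 6), the log2 difference was 0.28 (standard error 0.0553, adjusted p = 0.00143, limma). Detection p-values were not used here, so no bound was set for signals near the background of the array.

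Catalase (Cat) was the gene with the smallest difference between the tissues. It read 337, 321 and 366 in heart on the control diet and 318, 350.3 and 359 on the high-iron diet. EDL arrays gave 285, 293 and 340.5 on the control diet and 272, 296 and 326 on the high-iron diet, overlapping with heart. The means were 342 ± 19.97 and 302 ± 26.0 (SD, n = 6), and the log2 difference of 0.18 (standard error 0.0627, adjusted p = 0.0776, limma) did not pass the test. Without the pair of heart arrays that stood apart, the log2 difference of Cat was 0.23 and passed the test (adjusted p = 0.0117, limma).

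Prdx1, a cytosolic peroxiredoxin, had signals of 10602, 12805 and 9776 in heart on the control diet and 11933, 9548 and 8683 on the high-iron diet. In EDL they were 8137, 9083 and 8179.9 on the control diet and 8284, 8137 and 7237 on the high-iron diet. The lowest heart array, high-iron replicate 3, read below the highest EDL array, control replicate 2. The tissue means were 10558 ± 1555 and 8176 ± 586 (SD, n = 6), a log2 difference of 0.36 (standard error 0.0803, adjusted p = 0.00428, limma). This call depended on the scaling of the arrays: when each array was only scaled to a common median, the difference was 0.22 and did not pass the test (adjusted p = 0.353, limma).

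Prdx2, the other main cytosolic peroxiredoxin and an abundant protein of red blood cells, showed the largest tissue difference of all 8 genes. Its brightest probe read 5973, 7305 and 5846 in heart on the control diet and 7352, 5962 and 5992 on the high-iron diet. In EDL it read 2686, 2726 and 2630.3 on the control diet and 2513, 2470.4 and 2321 on the high-iron diet, so that even the lowest heart array was above 2 times the highest EDL array. Heart had 6405 ± 717 and EDL 2558 ± 152 (SD, n = 6), a log2 difference of 1.32 (standard error 0.0664, adjusted p = 1.32e-10, limma). The other Prdx2 probes, which the annotation assigns to the same transcript, did not share this difference: probe 5340577 had 705 ± 45.3 in heart and 687 ± 38.9 in EDL, and probe 4010619 had 440.1 ± 27.0 and 450.0 ± 16.8 (SD, n = 6). Their log2 differences of 0.036 and -0.034 did not pass the test, so the finding for Prdx2 rests on 1 of 3 probes.

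Red blood cell markers also differed between the tissues. Of 10 measured, 6 were higher in heart and none was lower, with a median log2 difference of 0.43, and their summed signal was 54987 to 76760.3 in heart and 14009.7 to 24488 in EDL. Hba-a1, an alpha globin gene, read 66067, 49495 and 52141 in control hearts and 12066, 17699 and 14736 in control EDL, a log2 difference of 1.94 (adjusted p = 1.19e-08, limma). Alas2, the erythroid enzyme of heme synthesis, differed by 1.57 and Hbb-bt, a beta globin gene, by 1.48. The part of blood cells in the Prdx2 difference was not tested.

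Prdx3, which works in mitochondria, read 2209.5, 2592 and 2331 in heart on the control diet and 2504, 2133 and 2331 on the high-iron diet. In EDL it read 1834, 1911 and 2019.5 on the control diet and 1731, 2025 and 1743 on the high-iron diet, and the tissues did not overlap, although the gap between the lowest heart array and the highest EDL array was small. The means were 2350.2 ± 173 and 1877 ± 129.99 (SD, n = 6), a log2 difference of 0.32 (standard error 0.0607, adjusted p = 0.000907, limma). Scaling to a common median gave 0.14 for Prdx3, which did not pass the test (adjusted p = 0.714, limma). Sod2, whose product works in the same compartment, had 1.86-fold between the tissues and Prdx3 1.25-fold, and the difference between these was not tested.

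Prdx4, the peroxiredoxin of the endoplasmic reticulum, read 1261, 1474 and 1192 in heart on the control diet and 1630.4, 1264 and 1299 on the high-iron diet. In EDL it read 736, 609.7 and 652 on the control diet and 683, 741 and 648 on the high-iron diet. Every heart array was well above every EDL array, and the highest of all was 1 of the pair that stood apart. Heart had 1354 ± 165 and EDL 678 ± 52.1 (SD, n = 6), a log2 difference of 0.99 (standard error 0.0748, adjusted p = 2.58e-08, limma). The other Prdx4 probe, assigned to a cDNA clone record, read 223 to 253 over the 12 arrays, below the median of all probes, and its log2 difference of -0.0084 did not pass the test.

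**Figure D2:**
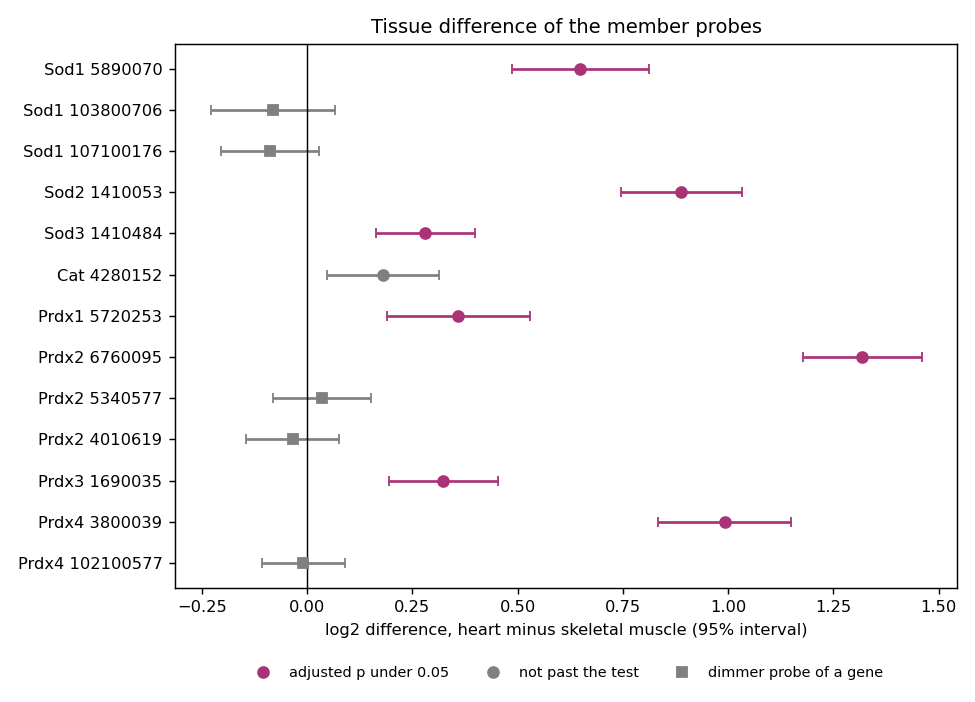
Log2 difference of heart minus skeletal muscle for each of the 13 probes (horizontal axis, points, with 95% intervals from limma over 12 arrays). Circles are the brightest probe of a gene and squares its dimmer probes, with purple for an adjusted p under 0.05. The brightest probes run from 0.18 for Cat to 1.32 for Prdx2, while the 5 dimmer probes lie around 0.

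The genes differed in how firmly the tissue difference stood. Prdx2, Prdx4, Sod2 and Sod1 passed the test under each of the 22 alternatives run on their brightest probe, with log2 differences of 1.14 to 1.4, 0.89 to 1.03, 0.73 to 0.95 and 0.45 to 0.69. These alternatives leave out the choice of probe. No dimmer probe of Sod1, Prdx2 or Prdx4 passed the test, and those of Prdx2, assigned to the same transcript, were at 0.036 and -0.034. Sod3 and Prdx3 passed in 21, Prdx1 in 20 and Cat in 7. The difference was also present within each diet: with the 6 arrays of the control diet and with the 6 of the high-iron diet, 6 of the 13 member probes passed the test each time, all higher in heart, beside 5% and 4.78% of all probes, Sod3 missing it in the former (adjusted p = 0.0601) and Prdx1 in the latter (adjusted p = 0.0875, limma).

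For the 3 genes with the largest differences, the genes of most similar profile were sought among 17650 named genes by the root mean square difference of centred log2 values over the 12 arrays. For Prdx2 these were Mgrn1 (0.0555), Cerk (0.0657) and Psme1 (0.0662), each higher in heart by 1.31 to 1.35 on the log2 scale. Mgrn1 encodes a ubiquitin ligase, Cerk ceramide kinase and Psme1 a subunit of a proteasome activator. Nearest to Prdx4 were Lhfp (0.0536), Nsmce1 (0.0539), which encodes a subunit of a chromosome maintenance complex, and Arhgef3 (0.0666), a gene of a guanine nucleotide exchange factor. Nearest to Sod2 were Mrpl49 (0.0596), a mitochondrial ribosomal protein gene, Dhrs11 (0.0673), a dehydrogenase gene, and Chchd7 (0.0673), whose product is a mitochondrial protein. All 6 were higher in heart by 0.91 to 1.02 on the log2 scale. A near profile holds the tissue difference of its member, so the tissue differences of these neighbours follow from the search and are no separate result.

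The genes that supply or reduce these enzymes did not all follow them between the tissues. Of 6 genes for copper delivery, 3 were higher in heart and none was lower: Atox1, a copper chaperone, by 0.50 on the log2 scale, Ccs, the chaperone that loads copper into SOD1, by 0.34 and Slc31a2, a copper transporter, by 0.23. The Ccs signals were 977, 1212 and 979.6 in control hearts and 855, 812 and 915 in control EDL, without overlap between the tissues. In the thioredoxin cycle, which reduces the peroxiredoxins, 3 of 10 genes were higher and 3 lower in heart. Txnrd2, the mitochondrial thioredoxin reductase, was higher by 0.38 and Txnrd1, the cytosolic one, lower at -0.37. Sesn1, a stress-inducible sestrin, was higher by 1.54, and Txnip, which binds and inhibits thioredoxin, was lower at -0.92.

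Other enzymes of peroxide removal gave a mixed picture as well. Among 8 genes of glutathione peroxidases, glutathione reductase and the glutaredoxins Glrx and Glrx2, 3 were higher and 1 lower in heart. Gpx8 was higher by 0.95, Gpx4, the enzyme that reduces lipid peroxides, by 0.79 and Gpx1, the main cytosolic form, by 0.66 on the log2 scale. Gsr, glutathione reductase, was lower at -0.18. Of 12 peroxisomal genes, which belong to the compartment of catalase, 3 were higher and 1 lower, with a median of -0.011; Acaa1a, a thiolase of fatty acid oxidation, was higher by 0.77 and Pex11a, a gene of peroxisome division, lower at -0.38. Of 12 sources of superoxide and peroxide, 4 were higher and 1 lower, led by Cyba, the membrane subunit of NADPH oxidases, at 1.10, and Maob, monoamine oxidase B, at 0.72. Of 17 genes of NRF2 and its targets, 5 were higher and 3 lower, among them the glutathione transferases Gsta4 (1.66) and Gsta3 (1.26), Nqo1, a quinone reductase (0.50), and Keap1, the inhibitor of NRF2 (-0.42).

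Of 15 genes of mitochondrial respiration and the citrate cycle, 9 were higher in heart and 1 lower, with a median log2 difference of 0.37. Ogdh, a subunit of the oxoglutarate dehydrogenase complex, was higher by 1.45, Ndufv1, a subunit of complex I, by 0.80, Sdhb, a subunit of complex II, by 0.56 and Cox5a, a subunit of cytochrome oxidase, by 0.46. The mitochondrial members lay on both sides of that median, Sod2 at 0.89 and Prdx3 at 0.32. Markers of other cell types also differed: 7 of 9 macrophage and 6 of 8 endothelial markers were higher in heart, with medians of 0.43 and 0.41, and 2 of 6 smooth muscle markers, 1 of 7 adipocyte markers and 1 of 5 atrial markers were higher, while 4 of 7 fibroblast markers were lower in heart and none of 9 neutrophil markers passed the test. The summed signal of the macrophage markers was 5174 to 6047 in heart and 3199 to 4223 in EDL. Their part in the tissue differences of the 8 genes was not tested.

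**Figure D3:**
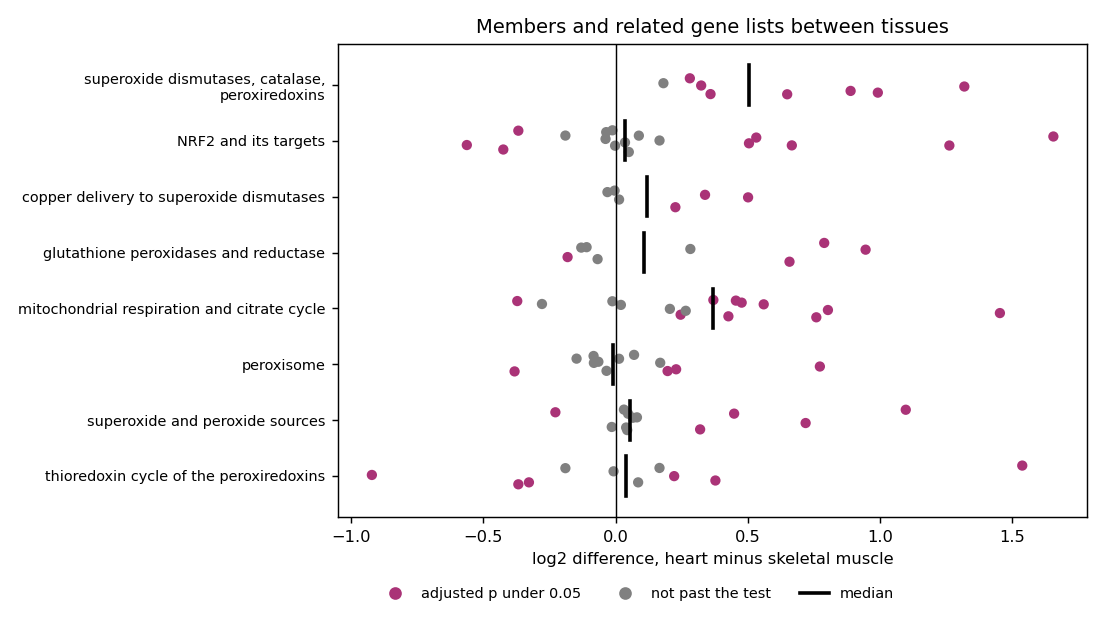
Log2 difference of heart minus skeletal muscle (horizontal axis) for the 8 genes, on their brightest probes, and for the genes of 7 related lists, 1 point per gene. Purple points passed an adjusted p of 0.05 in limma, grey points did not, and black bars are medians. The median is 0.50 for the 8 genes, 0.37 for mitochondrial respiration and the citrate cycle, and between -0.011 and 0.12 for the other 6 lists.

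No difference between the diets was detected for these mRNAs in heart. None of the 13 probes passed an adjusted p of 0.05 (limma), and none had an unadjusted p under 0.05, where 1180 of all probes had one. Of all probes on the array, 0% were called for the diet in heart. The log2 differences, high-iron minus control, ran from -0.14 for Prdx1 to 0.091 for Prdx4, with standard errors of 0.0812 to 0.131, and 7 of the 8 genes lay within 1 standard error of 0.

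Among the dismutases, Sod1 averaged 5346 ± 999.8 under control feeding and 5361 ± 617 under high iron in heart (SD, n = 3 arrays per diet, as for the values that follow). Sod2 averaged 8849 ± 933 and 8423 ± 1015. Sod3 averaged 292 ± 13.7 and 278 ± 21.4. The diets overlapped for each of the dismutases, and for Cat, at 341 ± 22.7 and 342 ± 21.9, they were nearly at the same mean. Prdx1, which had the largest difference in heart, was at 11061 ± 1566 and 10055 ± 1683, a ratio of 0.909 (95% interval of the fold 0.741 to 1.11, adjusted p = 0.999975, limma). Prdx2 was at 6375 ± 808 and 6435 ± 794, with the highest array of each diet belonging to the pair that stood apart. Prdx3 was at 2378 ± 195 and 2323 ± 185. Prdx4 was at 1309 ± 147 and 1398 ± 202, and for it and the other peroxiredoxins the diets overlapped. The only probe whose arrays did not overlap between the diets was the dim Sod1 probe 107100176, at 268, 247 and 265 on the control diet and 279.7, 275 and 291 on the high-iron diet (7.79% of all probes did not overlap in heart). Taken over the brightest probes, the intervals reached from 0.741-fold to 1.27-fold, so that larger changes lie outside them in this fit. They shift with the arrays used and depend on the variance prior. With a trended robust prior the standard error in heart was 0.194 for Prdx1 and 0.184 for Sod2, against 0.131 and 0.106 in this fit. Over the alternatives the log2 difference of Prdx1 ran from -0.27 (standard error 0.115, without high-iron replicate 1) to -0.031. Without the pair of heart arrays that stood apart, again none of the 13 probes passed the test.

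In skeletal muscle none of the 13 probes passed the test for the diet either. None had an unadjusted p under 0.05, where 2364 of all probes had one, and 0.0997% of all probes, 46 in number, passed the adjusted threshold. Of the 8 genes, 6 read lower on the high-iron diet, with log2 differences from -0.14 for Prdx2 to 0.055 for Prdx4, and the median was -0.055 against -0.00017 for all probes. Among the related lists, copper delivery and mitochondrial respiration also had medians of -0.062 each, and the other lists ran from -0.029 to 0.032. The share of all probes that read lower, or of those of like brightness, was not computed.

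Prdx2 came closest to a difference. In EDL its signals were 2686, 2726 and 2630.3 with the control diet and 2513, 2470.4 and 2321 on the high-iron diet, so that all 3 arrays of the high-iron diet were below all 3 of the control diet. The means were 2681 ± 48.3 and 2435 ± 101 (SD, n = 3), a ratio of 0.908 and a log2 difference of -0.14 (standard error 0.0709, 95% interval of the fold 0.820 to 1.01), which did not pass the test (adjusted p = 0.987, limma). A lack of overlap was common, at 10.2% of all probes in skeletal muscle, against 1 of the 13 probes here. The dimmer Prdx2 probes gave log2 differences of -0.066 and 0.0023.

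The remaining genes overlapped between the diets in EDL. Sod1 averaged 3433 ± 186 under control feeding and 3347 ± 67.8 under high iron (SD, n = 3). Sod2 was slightly higher on average on the high-iron diet, at 4724 ± 143 against 4575 ± 403. Sod3 and Cat, which gave the dimmest signals among the brightest probes, both had the lower mean on the high-iron diet. For Sod3 these were 243 ± 18.1 and 226 ± 10.96. For Cat they were 306 ± 30.1 and 298 ± 27.1. Among the peroxiredoxins, Prdx1 and Prdx3 had the lower mean on the high-iron diet and Prdx4 the higher one. Prdx1 had 8467 ± 535 and 7886 ± 567. Prdx3 had 1922 ± 93.0 and 1833 ± 167. Prdx4 had 666 ± 64.2 and 691 ± 46.8. The intervals of the fold over the 8 genes reached from 0.820 to 1.17, narrower than in heart. By the fold rule of the methods, a ratio of means past 1.4 in either direction, none of the 13 probes was selected in either tissue, against 0.165% of all probes in heart and 0.117% in skeletal muscle.

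**Figure D4:**
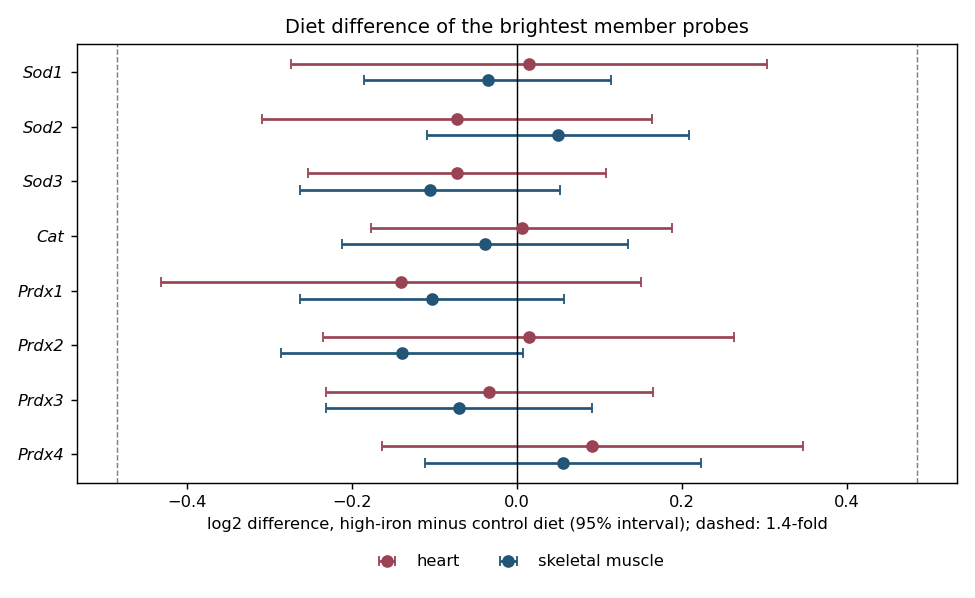
Log2 difference of the high-iron minus the control diet (horizontal axis) for the brightest probe of each gene, in heart and in skeletal muscle, with 95% intervals from limma (3 arrays per diet and tissue). Dashed lines mark 1.4-fold. In this fit all 16 intervals include 0 and none reaches 1.4-fold. With a trended robust prior the standard errors of Prdx1 and Sod2 in heart were larger, and intervals of that fit are not shown.

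Ordered by level, both heart groups had a higher mean than both EDL groups for all 8 genes. Between the tissues the arrays overlapped for Sod3, Cat and Prdx1, and within a tissue no gene's diets differed by the test. The difference between the tissues in the response to the diet, tested as an interaction, ran from -0.12 for Sod2 to 0.15 for Prdx2 on the log2 scale (heart minus skeletal muscle). No probe of these genes passed the test (smallest unadjusted p = 0.264, adjusted p = 0.999915, limma), and 0% of all probes were called, while 1313 of all probes had an unadjusted p under 0.05. The intervals of the interaction reached from 0.753-fold to 1.35-fold.

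No gene of the 7 related lists passed the test for the diet in heart or in EDL (limma). The lists hold 6 to 17 genes each, and 3 of their genes in heart and 8 in EDL had an unadjusted p under 0.05. In EDL these were 3 of 17 NRF2, 2 of 12 peroxisomal, 2 of 10 thioredoxin cycle and 1 of 8 glutathione genes. In heart they were 1 each of the NRF2, peroxisomal and thioredoxin cycle genes. The lists of copper delivery (6 genes), superoxide and peroxide sources (12) and mitochondrial respiration (15) held none. Of all 46133 probes, 1180 in heart and 2364 in EDL had an unadjusted p under 0.05. Txnip, the thioredoxin inhibitor, read 3583, 2609 and 3519.5 in heart on the control diet and 5789.7, 7140.0 and 6080.2 on the high-iron diet. In EDL it read 7352, 8284 and 6816 on the control diet and 10085, 9855 and 9279 on the high-iron diet. All arrays of the high-iron diet were above those of the control diet in both tissues, but the log2 differences of 0.98 in heart (adjusted p = 0.418) and 0.38 in EDL (adjusted p = 0.0636, limma) did not pass the test. Among the other genes nearest to a difference, Gstm1, a glutathione transferase, differed by 0.21 in heart and 0.20 in EDL, Ehhadh, a peroxisomal enzyme of fatty acid oxidation, by 0.26 in heart and Gpx1 by -0.20 in EDL, none of which passed the test. Gpx3, the extracellular glutathione peroxidase, read 1827, 1988 and 1522 in heart on the control diet and 4581, 1583 and 1625 on the high-iron diet. Its log2 difference of 0.36 rested on high-iron replicate 1 and was -0.14 without that array, and neither value passed the test. Of the marker lists, the neutrophil list alone held genes that passed it, S100a8 (1.18) and S100a9 (0.94) in EDL. The summed signal of the other 7 markers in EDL was 1760 to 1867 with the control diet and 1784 to 1860 on the high-iron diet, and the median log2 difference of the whole list was 0.021.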

How the data were processed

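The authors read the arrays with BeadStudio and deposited, per sample, linear signal intensity before normalization; their deposited series table holds intensity after quantile normalization in Inforsense KDE and served as an alternative. Array medians before normalization were 183 to 337. Signals were quantile normalized over the 12 arrays, taken to log2 without an offset and compared with limma 3.58.1 (lmFit, eBayes, two-sided) in R 4.3.3, p being adjusted over the 46133 probes by the Benjamini-Hochberg method (threshold 0.05). The diets were compared within each tissue; the tissues were compared over 4 group means.

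A gene with several probes was represented by its brightest. From each related list, up to 4 genes of smallest p between the tissues and up to 2 per diet comparison could be named. The genes, lists and tests were chosen with earlier results of these data known. Platform annotation named 29542 probes by 1 symbol, 11 by several and 16580 by none. Promoters came from RefSeq; the genome build behind the probes is not given in the sources used here. The sources do not state that a replicate number marks the same mouse in both tissues, so heart and EDL were not paired. The chip of each array is not in the labels. Tests were also run on simulated data with independent noise on each array. These do not hold arrays that deviate together, as 2 heart arrays do here, and their outcome is not given. Alternatives were another scaling, the authors' table, an offset of 50, the probes above the median signal, other variance priors, array weights, 1 fit over all groups, replicate blocks, another probe per gene and leaving out arrays. The number of arrays limits the precision.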

Additional observations from a re-analysis of the deposited data

How the results depend on the processing

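Between the tissues no direction changed for the brightest probes in 176 alternative values. Of 13 probes, 7 passed the test and 5 to 8 under the alternatives (7 to 8 with 1 array left out, 7 with heart and EDL of the same diet and number as a replicate block, whose deviations from group means correlated at only 0.0262 to 0.0998). With another probe in place of the brightest, the log2 difference became -0.081 or -0.087 for Sod1, 0.036 or -0.034 for Prdx2 and -0.0084 for Prdx4, and that of Prdx2 between the diets in EDL 0.0023; the cause was not tested. Cat passed the test with the authors' table (adjusted p = 0.0485), a trended robust prior (0.0397), array weights (0.0199), and without heart iron replicate 1 (0.0380), EDL control replicate 3 (0.0268) or EDL iron replicate 3 (0.0392).

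For the diets, 0 of the 13 probes passed under every alternative run, the replicate block and 1 array left out included. Mice of different diets are different animals. Deviations of arrays of the same number correlated between the diets at -0.54 to 0.49 in heart and 0.02 to 0.10 in EDL. In heart, replicates 1 and 2 each hold 1 of the arrays that stood apart, so these correlations do not show what a number shares. Medians before normalization followed the number in all 4 groups, at 281 to 337 for replicate 1, 251 to 282.5 for replicate 2 and 183 to 193 for replicate 3. The labels do not explain this. Signs changed in 16 of 120 values in heart, 4 of 112 in EDL and 17 of 160 for the interaction. Over all probes the diet calls in EDL were 46, but 0 with scaling to a common median, 2 in 1 fit over the 4 groups, 74 with the offset, 77 with the replicate block and 27 without iron replicate 1. In heart they were 0, but 28 without both arrays that stood apart, 5 in 1 fit over the 4 groups, 2 with a trended robust prior and 1 without control replicate 1 or 2. The log2 difference of Gpx3 in heart was -0.14 without iron replicate 1, an alternative chosen after seeing the data. Chip could not be tried as a block. Dim signals of Sod3 and Cat limit what their ratios show.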
